A study of Mus musculus with 16 samples.

Results

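The RAS, RAF and MEK genes, which lie directly above the ERK kinases, were followed in the palate mesenchyme of mouse embryos in which Erk2 had been inactivated. The group was named gene by gene from the pathway and holds 8 genes: the phosphatase Ptpn11, the exchange factor Sos1, the RAS genes Hras and Nras, the RAF kinases Araf and Braf, and the MEK kinases Map2k1 and Map2k2. It was represented by 28 of the 45101 probe sets of the array, and these covered 7 of the 8 genes. Hras is not analysed here. Of the 28 probe sets, 18 had a log2 value of at least 4 on at least 3 arrays and were tested, among 18128 probe sets tested in all. The 7 genes were tested among 11115 genes, each read through the 1 probe set whose average over the 16 arrays was highest.

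Total RNA of palate mesenchyme tissue was hybridised to 16 Affymetrix arrays, and the values are GCRMA signals on a log2 scale. Mutants were Erk2 fl/fl; Wnt1-Cre and controls were Erk2 fl/fl without the Cre, so both genotypes carried the floxed allele, and all were on the C57BL/6J strain. There were 3 mutant and 3 control arrays at embryonic day 13.5 (E13.5) and 5 of each at E14.5, where replicates 1 and 2 are labelled batch 1 and replicates 3 to 5 are labelled batch 2. Wnt1-Cre recombines in the neural crest, so palate cells of other origin, among them the epithelium, keep Erk2, and the controls do not carry Cre. The number of embryos behind an array is not given in the labels, so the p-values measure the spread between these arrays, which may in part be technical. The sample labels also name the controls Erk2 wild-type. The deleted gene itself is not analysed here, so the genotype labels were not checked against it.

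In this cascade an activated receptor tyrosine kinase recruits adaptors, SHP2 (the product of Ptpn11) and the exchange factor SOS1, which loads RAS with GTP. GTP-bound RAS activates the RAF kinases at the membrane, RAF phosphorylates MEK1 and MEK2 (Map2k1 and Map2k2), and these phosphorylate ERK1 and ERK2. The step from RAF to ERK is controlled mainly by phosphorylation, while transcription supplies negative feedback through the Sprouty and dual-specificity phosphatase genes. Germline variants of genes in this pathway cause syndromes with craniofacial features, and ERK signalling takes part in the growth of the palatal shelves. The arrays measured RNA only, so they bear on the amount of transcript and not on activity.

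The sequences directly upstream of 3 of the genes are shown because these, Nras, Sos1 and Braf, had the 3 highest pairwise correlations over the 16 arrays, as described further on. For Nras and Braf, and in part for Sos1 and Braf, that value came from the E13.5 arrays. Each is the 110 bases before the RefSeq transcription start, written in the direction of transcription, from the GRCm38.p6 promoter table of RefSeq, and capitals mark matches to 5 motifs on either strand.
Nras, chr3:103058175-103058284, plus strand: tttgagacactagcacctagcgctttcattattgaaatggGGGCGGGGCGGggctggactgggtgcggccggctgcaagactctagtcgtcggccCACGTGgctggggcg
Sos1, chr17:80480454-80480563, minus strand: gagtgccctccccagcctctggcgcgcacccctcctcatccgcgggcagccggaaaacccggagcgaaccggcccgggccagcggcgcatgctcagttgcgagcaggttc
Braf, chr6:39725464-39725573, minus strand: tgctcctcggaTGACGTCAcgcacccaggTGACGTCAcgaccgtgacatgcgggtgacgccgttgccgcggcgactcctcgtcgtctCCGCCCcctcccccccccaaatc
The motifs searched were the GC box GGGCGG, the CCAAT box CCAAT, the ETS-type site CCGGAAG, the cAMP response element TGACGTCA and the E-box CACGTG. In the 250 upstream bases of 32851 RefSeq promoters they were found in 32.7%, 33.8%, 6.91%, 1.55% and 6.02%, respectively. The stretch of Nras held 2 GC boxes that overlap each other and 1 E-box. The stretch of Braf held 2 cAMP response elements and 1 GC box on the opposite strand, and none of the 5 motifs was found in the stretch of Sos1. No motif was found in all of the 3 stretches. A match is a description of the letters and not of a bound site.

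The first question was whether the genes above ERK2 were expressed differently once Erk2 was inactivated. At E13.5 none of the 7 genes passed an adjusted p of 0.05 (limma, Benjamini-Hochberg over all 11115 genes), and over all genes 11, or 0.099%, did. The differences ran from −0.26 on the log2 scale for Braf to 0.04 for Map2k1, and 6 of the 7 genes were lower in mutants, where 68.5% of all genes were. The median over the 7 genes was −0.10 and over all genes −0.04. At E14.5 none of the 7 passed either, while 292 genes, 2.63% of those tested, did. There 4 genes were higher and 3 lower, from −0.16 for Araf to 0.07 for Nras, with a median of 0.00 beside 0.01 over all genes. By an unadjusted p under 0.05, 1 of the 7 genes passed at E13.5 (9.54% of all genes) and none at E14.5 (17.3%). In no gene did the mutant and control arrays lie fully apart at either stage, once the fitted batch effect had been removed at E14.5; this separation was seen in 17.9% of all genes at E13.5 and in 4.9% at E14.5. In bulk tissue, fewer cells of a type and less RNA per cell cannot be told apart.

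Ptpn11 encodes SHP2, a tyrosine phosphatase that is needed for RAS activation by most receptor tyrosine kinases. At E13.5 its log2 values were 8.86, 8.72 and 8.73 in mutants, against 8.77, 8.77 and 8.88 in controls. The highest mutant array lay among the controls, and the difference was −0.03 ± 0.06 (SE, limma adjusted p = 0.88). At E14.5 the mutant arrays stood at 8.40, 8.34, 8.40, 8.40 and 8.40 and the control arrays at 8.40, 8.30, 8.43, 8.31 and 8.35. The genotypes overlapped, with 4 of the 5 mutant arrays within 0.01 of each other, and the difference was 0.03 ± 0.04 (adjusted p = 0.776). The 95% interval of the E14.5 difference, not adjusted for the number of genes, ran from −4.2% to 8.7%.

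Sos1 encodes the exchange factor that receives the adaptor signal and acts on RAS. Its E13.5 values were 8.07, 8.03 and 7.87 in mutants, against 8.01, 8.16 and 8.17 in controls. Mutant 3 was the lowest array, control 1 lay among the mutants, and the difference was −0.12 ± 0.09 (adjusted p = 0.693). At E14.5 the mutants stood at 7.48, 7.51, 7.59, 7.65 and 7.75 and the controls at 7.77, 7.57, 7.65, 7.60 and 7.44. The ranges nearly coincided, with a difference of −0.01 ± 0.07 (adjusted p = 0.95). Within batch 1 the mutants were 0.17 lower (log2 difference −0.17) and within batch 2 they were higher by 0.10.

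Nras is the RAS gene measured here, a GTPase that binds RAF when loaded with GTP. Its E13.5 values were 8.50, 8.57 and 8.36 in mutants, against 8.52, 8.59 and 8.61 in controls. Mutant 3 was the lowest and mutant 2 lay among the controls, so that the difference of −0.10 ± 0.06 did not pass (adjusted p = 0.626). At E14.5 the mutant arrays stood at 8.15, 8.15, 8.11, 8.19 and 8.25 and the control arrays at 8.16, 8.09, 8.11, 8.10 and 8.03. Mutants were on average above controls in both batches, by 0.02 in batch 1 and 0.11 in batch 2, but the genotypes overlapped and the difference of 0.07 ± 0.05 did not pass (adjusted p = 0.451). The 2 stages thus had differences of opposite sign in Nras. The change of the genotype effect between the stages was 0.17 ± 0.08, with an unadjusted p = 0.0398 and an adjusted p = 0.459 in the limma fit. No member passed this comparison, for which 0.117% of all genes passed the adjusted and 10.4% the unadjusted threshold.

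The RAF kinases were represented by Araf and Braf, whose products phosphorylate MEK. Araf had the widest spread of the 7 genes. At E13.5 its values were 4.59, 5.34 and 4.93 in mutants, against 5.25, 5.08 and 4.90 in controls, so that mutants held both the lowest and the highest array. The difference was −0.12 ± 0.20 (adjusted p = 0.885), and its 95% interval ran from −32.0% to 23.9%. At E14.5 the mutants stood at 6.33, 6.39, 6.66, 6.43 and 6.01 and the controls at 6.37, 7.0, 6.43, 6.26 and 6.55. Control 2 was the highest array and mutant 5 the lowest, and the difference was −0.16 ± 0.16 (adjusted p = 0.649). Without control 2 it was −0.04. Araf is an X-linked gene, and an array was called female where Xist lay above the mean of Y-linked genes. By this call 3 of 5 mutant and 1 of 5 control arrays at E14.5 were female, as were all 6 arrays at E13.5. An array of embryos of both sexes could also be called female. With sex as a term at E14.5, the difference was −0.15.

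Braf encodes the RAF kinase with the highest basal activity. Its E13.5 values were 5.93, 5.95 and 5.52 in mutants, against 5.94, 6.14 and 6.12 in controls. Mutant 3 lay far below the other arrays, while mutants 1 and 2 lay beside control 1. The difference of −0.26 ± 0.12 had an unadjusted p = 0.0494 and did not pass over all genes (limma adjusted p = 0.523). It was −0.12 without mutant 3 and −0.34 without mutant 2. Its 95% interval ran from −30.5% to −0.058%. At E14.5 the mutants stood at 5.06, 5.33, 5.01, 5.32 and 5.36 and the controls at 5.33, 5.51, 5.32, 5.4 and 5.25. Mutants 1 and 3 were the lowest of these 10 arrays, the other mutants lay within the controls, and the difference was −0.15 ± 0.09 (adjusted p = 0.456). It was −0.22 within batch 1 and −0.10 within batch 2.

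Map2k1 and Map2k2 encode MEK1 and MEK2, the kinases that activate ERK1 and ERK2. Map2k1 stood at 7.68, 7.52 and 7.65 in mutants, against 7.65, 7.58 and 7.50 in controls at E13.5. At E14.5 its values were 7.43, 7.34, 7.30, 7.20 and 7.24 in mutants, against 7.24, 7.35, 7.33, 7.29 and 7.30 in controls. The genotypes overlapped at both stages, and the differences were 0.04 ± 0.06 at E13.5 (adjusted p = 0.883) and 0.00 ± 0.05 at E14.5 (adjusted p = 0.991). At E14.5 mutant 1 lay above all controls and mutant 4 below them, and the other mutants lay within their range. The difference was 0.09 within batch 1 and −0.06 within batch 2. The pooled 95% interval at E14.5 ran from −7.0% to 7.8%.

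Map2k2 stood at 8.01, 7.98 and 8.08 in mutants, against 7.98, 8.08 and 8.12 in controls at E13.5. At E14.5 its values were 7.49, 7.28, 7.25, 7.21 and 7.33 in mutants, against 7.16, 7.21, 7.24, 7.29 and 7.49 in controls. One array of each genotype, mutant 1 and control 5, stood apart above the rest at E14.5. The differences were −0.03 ± 0.09 at E13.5 (adjusted p = 0.933) and 0.03 ± 0.07 at E14.5 (adjusted p = 0.846). As for Map2k1, the sign differed between the batches, with 0.20 in batch 1 and −0.08 in batch 2.

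**Figure D1:**
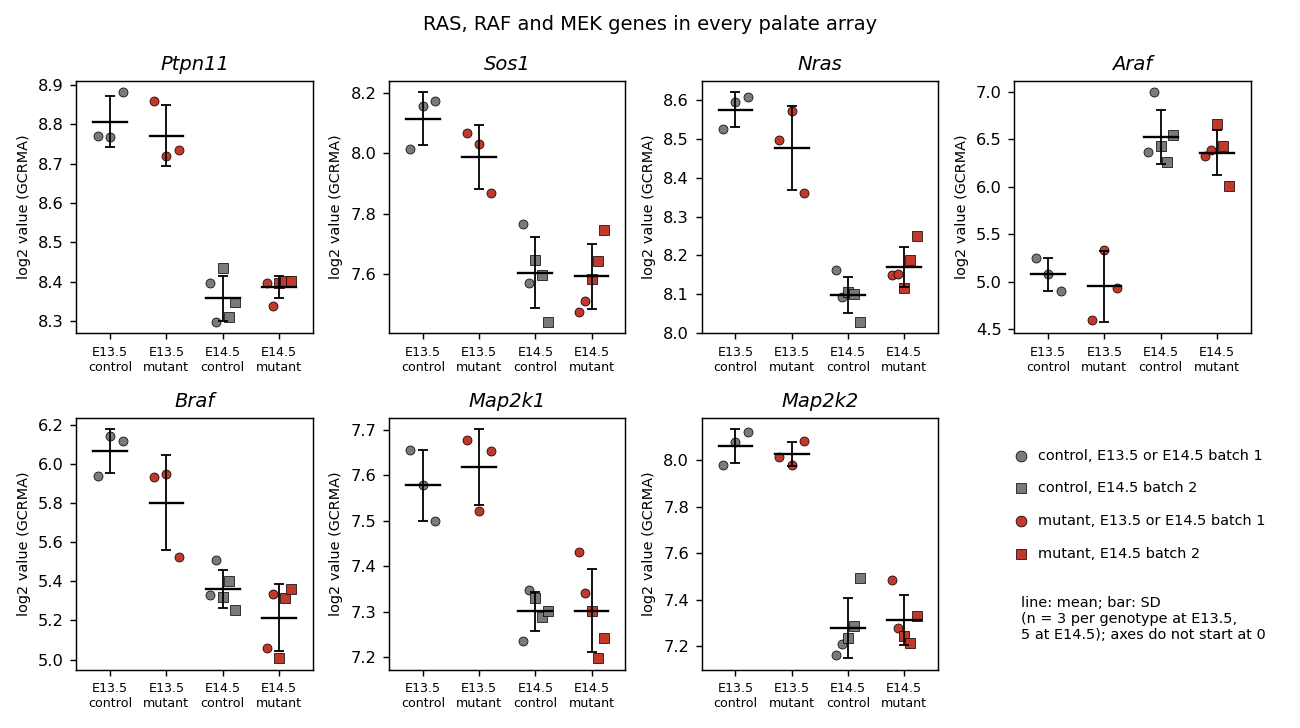
Log2 GCRMA value of the 7 measured genes (1 panel each, 1 probe set per gene) in every array, by stage and genotype; lines are means and bars SD, with n = 3 per genotype at E13.5 and 5 at E14.5, and squares mark batch 2. Mutant and control arrays overlap in every panel at both stages, and mutant 3 at E13.5, the rightmost mutant point, is the lowest E13.5 array for Sos1, Nras and Braf.

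**Figure D2:**
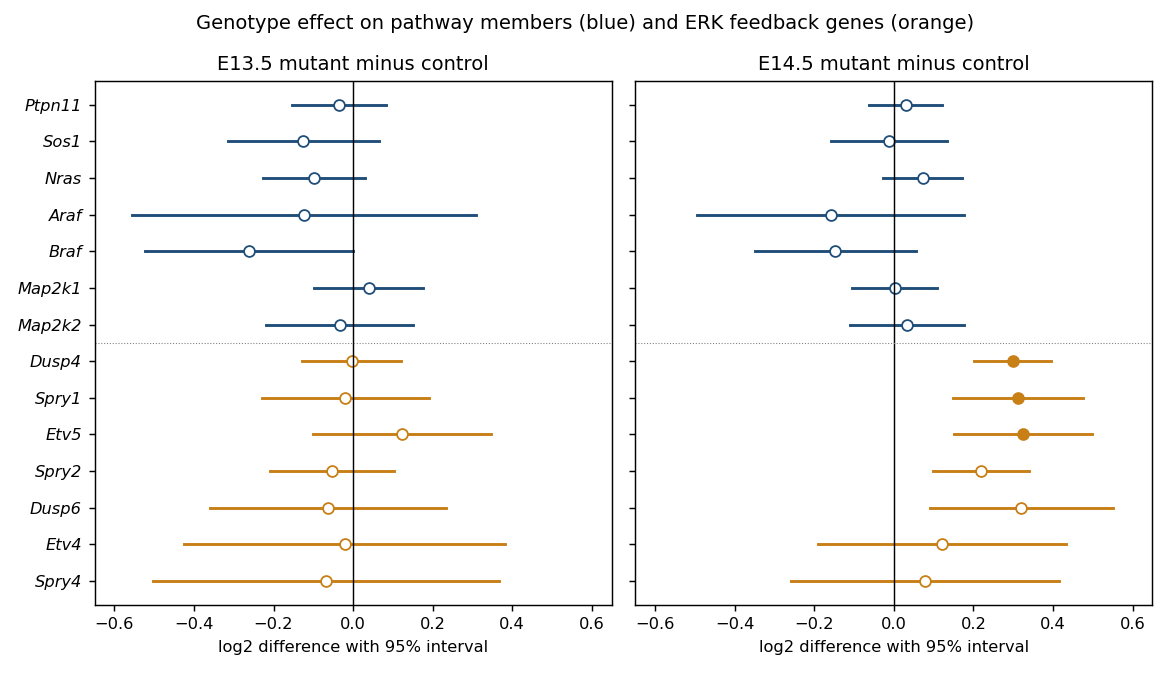
Mutant minus control on the log2 scale with 95% intervals for the 7 pathway members (blue) and for the 7 tested ERK feedback genes (orange), at E13.5 on the left and E14.5 on the right; filled points passed an adjusted p of 0.05. None of the blue points is filled, and 3 of the 7 orange points are filled at E14.5, Dusp4, Spry1 and Etv5, at 0.30 to 0.33; Spry2, Dusp6, Etv4 and Spry4, at 0.08 to 0.32, are open.

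Most of these genes have several probe sets, which read different parts of their transcripts. Of the 18 tested probe sets of the 7 genes, none passed at E13.5 or at E14.5, where 0.0552% and 1.3% of all probe sets did (limma, adjusted over 18128 probe sets). The smallest adjusted p was 0.416 at E13.5, for a Braf probe set (1435480_at), and 0.234 at E14.5, for an Nras probe set (1422688_a_at). By an unadjusted p under 0.05, 1 probe set passed at E13.5 and 2 at E14.5, beside 8.81% and 15.4% of all 18128 probe sets. The 2 at E14.5 were 1422688_a_at and the Araf probe set 1445693_at, which lay below log2 4 on every array of that stage. Of the 18, 5 reached log2 4 at E13.5 but on no array of E14.5: 3 of Araf, 1 of Ptpn11 and 1 of Sos1. They entered through E13.5, and their E14.5 values of 1.5 to 3.84 lay below the minimum used here.

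The 3 tested Braf probe sets were all lower in mutants at E13.5, by −0.11 to −0.30, and in each of them mutant 3 was the lowest of the 6 arrays. For 1435480_at the mutants stood at 5.01, 4.94 and 4.63 and the controls at 5.01, 5.23 and 5.25. At E14.5 this probe set stood at 4.26, 4.28, 4.14, 4.23 and 4.44 in mutants, against 4.08, 4.03, 4.17, 4.20 and 4.24 in controls, on average higher in mutants. Its genotype effect changed by 0.43 ± 0.13 between the stages (unadjusted p = 0.0046, limma adjusted p = 0.317). The other 2 Braf probe sets were lower in mutants at both stages. The 6 Braf probe sets left out were below a log2 value of 4 on every array.

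For Nras the probe sets differed in sign at E13.5. In 1422687_at the mutants stood at 8.17, 8.14 and 8.12, all below the controls at 8.19, 8.29 and 8.25. In 1422688_a_at the mutants stood at 6.13, 6.12 and 6.18, all above the controls at 6.09, 5.96 and 5.93. These were the 2 of 18 tested probe sets in which the genotypes did not overlap at E13.5, beside 17% of all probe sets. Neither passed over all probe sets (limma adjusted p = 0.706 and 0.707). At E14.5 all 3 Nras probe sets were higher in mutants, by 0.07 to 0.20, with overlap in each.

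Araf had 5 tested probe sets, 3 of them below log2 4 on every E14.5 array, 4 lower in mutants at E13.5 and 3 at E14.5, from −0.20 to 0.06 at the later stage. Both ends of that range came from the 3 low probe sets. The 2 tested probe sets of Sos1 had like differences at E13.5, −0.12 and −0.12. At E14.5, 1 of the 2 in Sos1 and 1 of the 2 in Ptpn11 lay below log2 4 on every array. Their E14.5 differences are therefore not compared. In Ptpn11 and in Map2k2 the 2 tested probe sets had opposite signs at E13.5, and in Map2k2 also at E14.5. None of these differences passed.

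**Figure D3:**
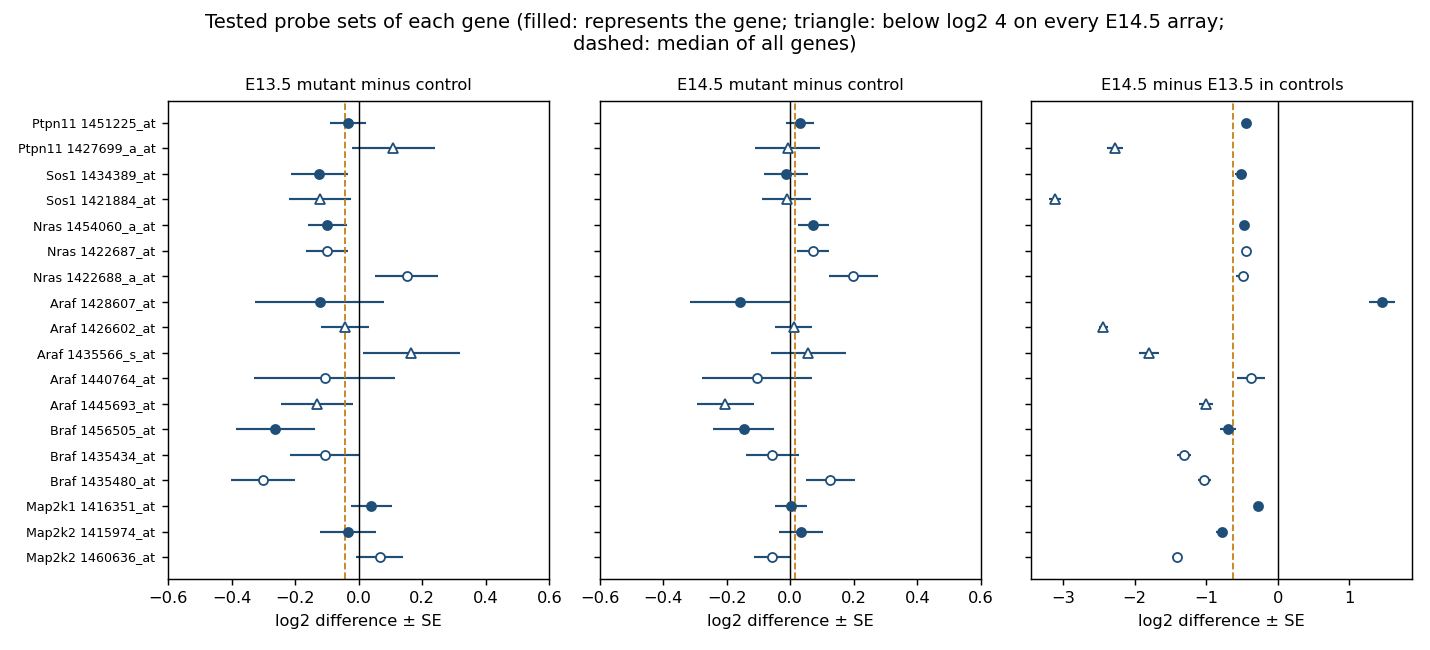
Log2 difference ± SE of the 18 tested probe sets of the 7 genes, from left to right for mutant minus control at E13.5, the same at E14.5 and E14.5 minus E13.5 in controls; filled points represent the gene in the other results, triangles are probe sets below log2 4 on every E14.5 array, and dashed lines are the median of all genes. The genotype differences stay between −0.30 and 0.20, while the stage differences run from −3.11 to 1.46 and differ among probe sets of 1 gene.

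The stages were compared within each genotype, with a limit that applies to every value. The median over all probe sets of an array lay between 3.39 and 3.44 at E13.5, but between 1.63 and 1.66 at E14.5, and 86.5% of all genes in controls and 85.3% in mutants passed between the stages, so stage and scaling cannot be told apart. The median difference over all genes, E14.5 minus E13.5, was −0.63 in controls and −0.56 in mutants. All 7 genes passed in both genotypes, 6 lower and 1 higher at E14.5. In controls Map2k2 differed by −0.78, Braf by −0.70, Sos1 by −0.51, Nras by −0.48, Ptpn11 by −0.45 and Map2k1 by −0.27. In mutants these were −0.72, −0.58, −0.40, −0.31, −0.39 and −0.31. Map2k2 and Braf were thus below the median of all genes and Sos1, Nras, Ptpn11 and Map2k1 above it, in both genotypes. Once each array was centred on its median over the genes tested, which lay between 6.57 and 6.70 at E13.5, but between 6.08 and 6.14 at E14.5, the signs of Sos1, Nras, Ptpn11 and Map2k1 turned and these 4 were higher at E14.5, and with quantile normalisation over all arrays the sign of Braf turned in both genotypes and that of Map2k1 in controls.

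Araf was the exception, at 1.46 ± 0.18 in controls and 1.42 ± 0.18 in mutants. For this X-linked gene stage was partly confounded with sex. All 6 arrays of E13.5 were called female, but at E14.5 only 3 of 5 mutant and 1 of 5 control arrays were. The term for sex was fitted within E14.5 only. Araf stood at 4.59 to 5.34 over the 6 arrays of E13.5 and at 6.01 to 7.0 over the 10 arrays of E14.5. This value rested on its representing probe set, 1428607_at, the 1 Araf probe set at log2 4 or above on all 16 arrays. Of the other 4, 3 were below that level on every E14.5 array and the fourth, 1440764_at, reached it on 5 arrays in all, 4 of them at E13.5, so their lower E14.5 values, by −0.38 to −2.44 in controls, came from probe sets that had been kept for their E13.5 values. The difference of 1440764_at did not pass (limma adjusted p = 0.0907). The choice of 1428607_at leaned to the other stage, as its average over the 16 arrays was highest through its E14.5 values. At E13.5 its means, 5.08 in controls and 4.95 in mutants, lay below those of 1426602_at (5.22 and 5.18). They also lay below those of 1435566_s_at in both genotypes. Selection thus entered on both sides, and the direction of Araf between the stages was not settled. With the mean over all its probe sets Araf differed by −0.83 in controls and −0.86 in mutants, a value that includes the other 4 probe sets. The second tested probe set of Sos1 and that of Ptpn11 were likewise below log2 4 on every E14.5 array, and their differences are not read here.

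Variation among arrays was then compared between the members after the mean of each stage, and of each batch at E14.5, had been removed. The values are a description over 16 arrays that share their preparation, and genotype was not removed. Of 21 pairs, 9 had a Pearson r above 0 and the median r was −0.07. Nras and Sos1 had the highest r, 0.76 (Spearman rho 0.63), which was 0.62 without the 2 arrays farthest from the Nras median. It was 0.91 over the 6 arrays of E13.5 and 0.66 over the 10 of E14.5. Braf and Sos1 had an r of 0.63 (rho 0.68), with 0.97 at E13.5 and 0.35 at E14.5. Braf and Nras had one of 0.55 (rho 0.44). For Braf and Nras this rested on the E13.5 arrays, with 0.97 there and 0.04 at E14.5, and r was 0.22 without the 2 arrays farthest from the Braf median. Mutant 3 at E13.5 was the lowest of the 16 arrays for each of Nras, Sos1 and Braf, at −0.17, −0.18 and −0.41 from its stage mean. This array also had the lowest median over the genes tested at that stage, 6.57, where the others had 6.63 to 6.70, and its part in the correlation was not tested beyond the values above. Without it the E13.5 differences of Nras, Sos1 and Braf were −0.04, −0.06 and −0.12.

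Map2k1 varied against these genes, with an r of −0.64 with Sos1 (rho −0.63), −0.59 with Nras (rho −0.65) and −0.48 with Braf (rho −0.56). The sign was the same at both stages for all 3 pairs. With Map2k2 its r was 0.32, which came from −0.33 at E13.5 and 0.61 at E14.5. Araf had its lowest r with Ptpn11, −0.53.

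**Figure D4:**
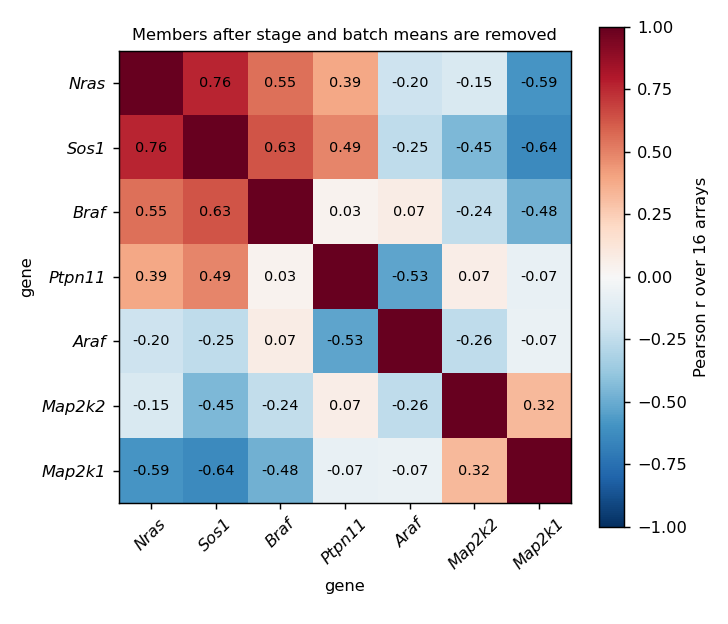
Pearson r between the 7 genes over 16 arrays after stage and batch means were removed, as a colour from −1 (blue) to 1 (red) with the value in each cell. Nras, Sos1 and Braf form the red corner (0.55 to 0.76), and Map2k1 is blue against all 3 (−0.48 to −0.64). Over the E14.5 arrays alone, r was 0.66 for Nras and Sos1, 0.35 for Braf and Sos1 and 0.04 for Braf and Nras.

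By the same measure over 10804 genes, the genes closest to each member were Garem1 and Baz1a for Nras (r 0.90 and 0.90), Rbm27 and Cramp1l for Sos1 (0.96 and 0.94) and Dnajb14 and Ro60 for Braf (0.89 and 0.89). For Araf they were Cmtm6 and Id2 (0.94 and 0.94), for Ptpn11 Phc1 and Epb41l3 (0.84 and 0.84), for Map2k1 Sri and Castor1 (0.81 and 0.80) and for Map2k2 Sh3bp4 and Mrpl38 (0.94 and 0.91). These are the highest of many correlations over 16 arrays, and none of the 7 members was the closest gene of another.

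The wider pathway around the members was read from 5 lists of 81 genes, 60 of them tested. None of the 60 passed at E13.5 or at E14.5. At E13.5, 20 were above 0 and 40 below, with a median of −0.02, beside −0.04 over all genes, and at E14.5, 27 were above and 33 below, with a median of −0.01, beside 0.01.

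Among 14 tested adaptors and exchange factors, which link receptors to RAS as Sos1 does, the smallest p at E14.5 belonged to the adaptors Irs2 (0.20 ± 0.07, adjusted p = 0.153) and Gab2 (−0.16 ± 0.06) and the exchange factor Rasgrp2 (−0.34 ± 0.15). At E13.5 they belonged to Frs3 (0.18), Sos2, the paralog of Sos1 (−0.13), and Gab1 (−0.13). Among 9 tested RAS inhibitors, all were below 0 at E13.5, where 68.5% of all genes were, and their median was −0.09 beside −0.04 over all genes. The smallest p belonged to Lztr1 (−0.20), Rasal2 (−0.09) and Dab2ip (−0.13). At E14.5 the Sprouty-related inhibitor Spred2 was at 0.20 ± 0.05 (adjusted p = 0.0601), the GTPase-activating protein Rasa3 at −0.31 ± 0.09 (adjusted p = 0.0769) and Spred1 at 0.08. Spred2 came closest to the threshold of the 60 genes and passed it under 4 of 34 alternatives.

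Among 13 other RAS proteins and RAS-processing enzymes the leading genes were Mras (−0.15), Rala (−0.05) and Rheb (−0.03) at E13.5 and Rras2 (−0.08), Rras (0.17) and Rap1a (−0.05) at E14.5. Among 17 RAF partners and scaffolds they were Arrb2 (−0.20), Cnksr2 (−0.28) and Arrb1 (−0.13) at E13.5 and the 14-3-3 gene Ywhae (0.09), the MEK scaffold subunit Lamtor2 (0.08) and Arrb1 (−0.17) at E14.5. A last list of 7 tested genes held kinases that act after ERK, the ERK-binding protein gene Pea15a, and Map2k5 and Mapk7 of the parallel ERK5 cascade. Its leading genes were Rps6ka3 (−0.14), Rps6ka5 (−0.33) and Mknk2 (−0.05) at E13.5 and Mknk2 (0.06), Pea15a (0.12) and Mknk1 (−0.10) at E14.5. All these values are mutant minus control on the log2 scale, and none passed.

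The members stood beside 7 tested ERK feedback genes, which are induced when the cascade is active. At E13.5 none of these passed and their median was −0.02. At E14.5, 3 of 7 rose in mutants, where 1.48% of all genes rose, and the median of all 7 was 0.30 beside 0.01 over all genes: the phosphatase gene Dusp4 by 0.30 ± 0.04 (limma adjusted p = 0.0041), the Sprouty gene Spry1 by 0.31 ± 0.08 (adjusted p = 0.045) and the ETS factor Etv5 by 0.33 ± 0.08 (adjusted p = 0.049). All 7 were above 0, as were 56% of all genes. Those that did not pass were Dusp6 (0.32, adjusted p = 0.135), Spry2 (0.22, adjusted p = 0.0564), Etv4 (0.12) and Spry4 (0.08). The change of effect between the stages did not pass for any of them, and was 0.30 for Dusp4 (adjusted p = 0.148). The call of Dusp4 was lost under 1 of 33 alternatives, and those of Spry1 and Etv5 under 24 of 34 each. The count of 3 was 1 without E13.5 mutant 2, E13.5 mutant 3, E13.5 control 1, E13.5 control 2, E14.5 mutant 1, E14.5 mutant 4, E14.5 mutant 5, E14.5 control 1 or E14.5 control 3, and it was 0 with batch 1 alone and 1 with batch 2 alone. This list was chosen with earlier results of these arrays known and is not independent evidence of its direction.

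The tissue label was set beside marker genes. All 10 palate mesenchyme markers were tested, with a mean log2 value per array of 8.91 to 9.47 over the 16 arrays. The 10 oral epithelium markers had averages over all arrays from 4.55 (Pkp3) to 9.34 (Epcam), so transcripts of epithelium were read as well. At E13.5 the mesenchyme markers averaged 9.14 to 9.26 in mutants and 9.31 to 9.47 in controls. The lower direction in mutants was shared by 6 of the 7 members and by 68.5% of all genes. At that stage no marker of any list passed. The 10 skeletal muscle markers averaged 6.73 to 7.05 in mutants, against 6.10 to 6.42 in controls. The 4 tested bone markers averaged 4.17 to 4.67 in mutants, against 4.97 to 5.19 in controls. The cartilage markers averaged 5.90 to 6.18 and 5.07 to 5.96, which overlapped. At E14.5, 4 of the 10 oral epithelium markers rose, where 1.48% of all genes rose, and 3 of the 4 bone markers fell, where 1.15% fell. The epithelial markers averaged 7.48 to 7.78 in mutants, against 7.10 to 7.26 in controls, and the bone markers 7.58 to 8.49 and 8.38 to 8.93. None of the mesenchyme, muscle, cartilage, endothelial, neuronal, erythroid and macrophage markers passed at E14.5. At E13.5 the mesenchyme, muscle and bone averages thus lay apart between the genotypes, as did the arrays in 17.9% of all single genes. The epithelial averages overlapped there, at 7.29 to 7.40 in mutants and 7.27 to 7.53 in controls. At E14.5 the epithelial averages lay apart and the bone averages overlapped. The muscle averages also overlapped at E14.5, at 5.41 to 6.55 in mutants and 4.73 to 5.78 in controls. The part of these levels in the values of the members and the feedback genes was not tested.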

How the data were processed

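The deposited table held log2 values that the authors made with GCRMA, per the submitters' processing notes; whether both stages were normalised together is not given in the sources used here. Probe sets were named from GEO's platform annotation: 34945 of 45101 had 1 gene, 932 had several and were left out, and the rest were unnamed here. Genes with at least 3 arrays at log2 4 or above were fitted with limma 3.58.1 (R 4.3.3, lmFit and eBayes) in 1 model of 4 groups with the labelled batch as a term within E14.5, and p-values were adjusted by Benjamini-Hochberg over all genes. Intervals are 95% and use the moderated standard error. The scripts were tested on simulated data. The number of arrays limits the precision. No 2 arrays held identical values, and arrays of a group correlated at 0.993 to 0.997. From the pathway lists every gene called was named, and otherwise up to 3 with the smallest p at each stage; for each member, the 2 genes with the highest r were named, without RIKEN clones and predicted genes. The members and lists were chosen with earlier results of these data known. Promoter stretches came from the RefSeq table of GRCm38.p6, in which all members named in the text matched. Other settings tried were the minimum value, which probe set stands for a gene, the scaling, terms for batch and sex, each array left out in turn and a replicate block.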

Additional observations from a re-analysis of the deposited data

Results flagged for a closer look

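In the E14.5 mutants, the Ptpn11 probe set 1451225_at stood at 8.34 (8.33887) in replicate 2, where the other 4 arrays lay between 8.398 and 8.402. The gap to the nearest array was 0.924 of the whole range of the group, above the Dixon 95% value of 0.71 for 5 arrays. It was 1 of 36 groups of arrays examined this way, and chance marks about 1 in 20. The whole range was small because the other 4 arrays were nearly equal, and the array lay within the range of the controls.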

How the results depend on the processing

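The 21 genotype results of the members were recomputed under 34 alternatives, which gave 695 values. None passed, the smallest adjusted p was 0.176, and the sign differed from the main value in 50. The count of feedback and other pathway genes passing at E14.5 was 3; it was 1 with no filter on low values, with the probe set of largest spread, with quantile normalisation over all arrays or within stage, with only the arrays of the stage compared, with batch 2 alone and with sex as a term, 5 with no batch term and 0 with batch 1 alone, and from 1 to 4 with 1 array left out. All 7 members passed between the stages; with the probe set of largest spread, 5 were tested (Braf and Sos1 were below the filter) and 4 passed in controls and in mutants, and with arrays centred on their medians over the genes tested 4 passed in controls. Between the stages, Araf was at −0.83 in controls and −0.86 in mutants with the mean over probe sets and at −0.38 and −0.37 with the probe set of largest spread. With arrays centred on their medians, controls and mutants gave 0.31 and 0.19 for Map2k1, 0.11 and 0.20 for Nras, 0.13 and 0.12 for Ptpn11 and 0.071 and 0.10 for Sos1. With quantile normalisation over all arrays Braf was at 0.13 and 0.26, and Map2k1 at 0.064 in controls. The causes were not tested.

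Replicate numbers were not used as pairs in the main fit. Deviations of same-numbered mutant and control arrays had correlations between −0.17 and 0.17 at E13.5, and between −0.27 and 0.06 at E14.5. These deviations are from means of 2 or 3 arrays, so they cannot decide whether the arrays were paired. With the replicate block, no member passed, Braf at E13.5 was at −0.26 (adjusted p = 0.606), and the count of pathway genes at E14.5 was 2.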
